A study of Mus musculus with 9 samples.

Results

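The comparison set Anp32e null mouse embryonic fibroblasts (MEFs) that had been transfected with a non-targeting (NT) siRNA against untransfected MEFs of the same genotype, and asked which promoters and gene loci differed in chromatin accessibility. It used 4 of the 9 ATAC-seq libraries of the series. The untransfected Anp32e null cells had 3 libraries, which the authors merged before peaks were called, and the NT siRNA cells had 1. Within the rule, which kept chromosomes 1 to 19, all 20807 protein-coding genes and 99573 merged sites entered the comparison, and none was chosen by its values. ATAC-seq uses the Tn5 transposase to cut open DNA, and the study used it to ask how the histone variant H2A.Z and its chaperone ANP32E shape accessibility.

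Both groups lacked ANP32E and were MEFs below passage 8, prepared with the Illumina Nextera DNA Flex kit. Lipofectamine RNAiMax, a cationic lipid reagent, carried the siRNA pool into the transfected cells, and the labels of the untransfected cells name no mock treatment. The other lists, used here only for reference, were untransfected WT MEFs (3 libraries) and Anp32e null MEFs given a pool of H2A.Z siRNAs with the same reagent (2 libraries). Each group was represented by 1 peak list, so every difference below lacks a replicate check and no test was made. Transfection, the reagent, the time in culture before collection, the single library and its depth cannot be told apart in this comparison.

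A promoter is the stretch around a transcription start site (TSS) where RNA polymerase assembles, and in most mammalian genes it is held open by transcription factors and lies in DNA rich in CpG dinucleotides. Promoters of tissue-specific genes more often lie in CpG-poor DNA and open only in the cells that use them. In fibroblasts, serum and stress act through immediate early genes such as Fos, Jun and Egr1, and through the SRF and YAP/TEAD factors that drive the contractile genes, while cationic lipid carrying a nucleic acid can engage innate sensors and the interferon response.

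The DNA under the summits that carry the differences is shown first. The letters are from GRCm38.p6, the assembly of mm10, with 101 bp centred on the summit, 5′ to 3′ on the strand of the gene, and capitals mark CpG dinucleotides. All sequences shown were chosen after the values had been seen, among the highest-ranked genes of each kind whose window held no exon. In the NT siRNA list alone were summits at Cd300lg chr11:102040319-102040419 on the plus strand, Cyp17a1 chr19:46670855-46670955 on the minus strand, Chrna9 chr5:65965988-65966088 on the plus strand and Gh chr11:106302820-106302920 on the minus strand.
Cd300lg: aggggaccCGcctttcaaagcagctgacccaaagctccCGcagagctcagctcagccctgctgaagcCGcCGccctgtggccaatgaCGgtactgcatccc
Cyp17a1: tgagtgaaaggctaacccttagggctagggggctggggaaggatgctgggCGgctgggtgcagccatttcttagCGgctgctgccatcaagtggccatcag
Chrna9: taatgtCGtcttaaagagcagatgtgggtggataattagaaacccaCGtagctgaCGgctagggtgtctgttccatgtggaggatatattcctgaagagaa
Gh: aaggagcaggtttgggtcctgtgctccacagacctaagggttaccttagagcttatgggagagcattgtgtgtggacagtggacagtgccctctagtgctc

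In the null list alone were summits at AW822073 chr10:58225351-58225451 on the minus strand, Slitrk5 chr14:111674769-111674869 on the plus strand, Olfr90 chr17:37088969-37089069 on the minus strand and Ankk1 chr9:49427393-49427493 on the minus strand. They are given in the same way, so that the CpG content of the opposite set can be read against the first.
AW822073: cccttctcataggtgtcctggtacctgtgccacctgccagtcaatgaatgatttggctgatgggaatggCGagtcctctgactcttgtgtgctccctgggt
Slitrk5: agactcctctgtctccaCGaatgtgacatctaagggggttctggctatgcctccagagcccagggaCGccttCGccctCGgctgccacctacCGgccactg
Olfr90: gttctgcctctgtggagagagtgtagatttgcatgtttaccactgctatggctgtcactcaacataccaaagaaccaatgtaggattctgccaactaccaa
Ankk1: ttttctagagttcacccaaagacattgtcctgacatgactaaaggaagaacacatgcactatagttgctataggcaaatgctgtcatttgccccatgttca

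Genes whose promoter peak was in both lists but changed rank are shown by the list in which they ranked higher. Csrp3 and Tlr12 ranked higher after NT siRNA, and 1700015G11Rik and Has2 ranked lower. The windows are Csrp3 chr7:48845698-48845798 on the minus strand, Tlr12 chr4:128619350-128619450 on the minus strand, 1700015G11Rik chr7:52016804-52016904 on the minus strand and Has2 chr15:56692375-56692475 on the minus strand.
Csrp3: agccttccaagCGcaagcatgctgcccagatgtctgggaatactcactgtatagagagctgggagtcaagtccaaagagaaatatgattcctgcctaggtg
Tlr12: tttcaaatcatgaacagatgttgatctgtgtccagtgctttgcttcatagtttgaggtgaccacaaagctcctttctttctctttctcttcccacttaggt
1700015G11Rik: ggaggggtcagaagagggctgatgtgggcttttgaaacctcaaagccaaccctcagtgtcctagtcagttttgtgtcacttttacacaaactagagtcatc
Has2: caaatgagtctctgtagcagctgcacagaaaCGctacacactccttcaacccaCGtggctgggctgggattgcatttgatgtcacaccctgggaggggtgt

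The 2 kinds of promoter called in 1 list alone were both poor in CpG. In the 101 bp at the summit, the median was 8 CpG over the 13781 genes with a promoter peak in both lists, 2 over 407 genes in the NT siRNA list alone and 4 over 357 in the null list alone, and 2.98%, 16.5% and 14.8% of the windows held none. The 407 and 357 leave out genes whose call rested on a window's edge or on a gap in the peak numbers, a choice made after seeing the values. Cd300lg, with 5 CpG, and Slitrk5, also with 5, lay above the median of their sets, while Gh, Olfr90, Ankk1, Tlr12 and 1700015G11Rik had none.

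Each peak is described by its fold, the number of fragments at the summit over the local background, with 1 added to both, and by the percentile of that fold within its own list. The null list held 80433 peaks on chromosomes 1 to 19 and the NT siRNA list 87116. Read back from the deposited fold and p-value, the summits had a median of 43 fragments in the null list and 54 in the NT siRNA list, over genome-wide backgrounds of 5.12 and 3.88 fragments. The single NT siRNA library therefore had the lower background and the higher median fold, 7.04 against 5.30. Of the null peaks, 83.6% overlapped an NT siRNA peak (95% Wilson interval 83.4 to 83.9), and 77.2% of the NT siRNA peaks overlapped a null peak (76.9 to 77.5). Intervals here and below cover counting error only. In the NT siRNA list 43 running peak numbers inside the list and 31 before its first were missing, so peaks had been removed before deposition, and 97 null peaks on these chromosomes, 33 of them at a TSS, lay in such gaps. The H2A.Z siRNA list lacked 47 and 32 numbers likewise and the null and WT lists 0. A gene in a gap could therefore be called in both untransfected lists and in neither transfected one. The paper states that it filtered out mitochondrial peaks and those in blacklisted regions. Whether that filter made the gaps was not tested.

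Genes of the comparison's own pathway checked the labels only in part. The promoter of Anp32e, the gene that is null in both groups, was called at percentile 84.9 in the null list and 86.4 in the NT siRNA list, and a promoter peak does not test the loss of the protein. H2afz, which encodes H2A.Z.1, went from percentile 81.9 to 70.1, and H2afv, which encodes H2A.Z.2, from 97.5 to 97.3. Of the 18 fibroblast markers listed, 16 had a promoter peak in both lists and 2 in neither. Of the 15 macrophage and blood markers on these chromosomes, 5 had a promoter peak in both lists, 1 in each list alone and 8 in neither, against 66.2% in both and 29.8% in neither over all genes. Ptprc, Spi1, Itgam and Adgre1 were in neither, and Cd14, Csf1r, Cd68, Laptm5 and Coro1a in both.

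Most promoters were called in both lists. A peak within 1 kb of any annotated TSS was present in both lists for 13781 genes (66.2%), in the NT siRNA list alone for 436 genes (2.10%) and in the null list alone for 386 genes (1.86%), while 6204 genes had none in either. The promoters in 1 list alone were weak, with median percentiles of 20.4 and 21.5 in their own lists and medians of 26 and 22 fragments. Between autosomes the NT siRNA alone share ran from 0.622% to 5.13% and the null alone share from 0.834% to 3.31%. The excess of NT siRNA alone genes turned around when both lists were cut to the same number of peaks, which gave 332 against 494, and widened to 548 against 309 at a −log10 q of 5 or more.

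The genes of these 2 sets lay in different surroundings. NT siRNA alone genes had a median of 25 protein-coding genes within 500 kb and null alone genes a median of 9, against 14 for genes in both lists. With all genes split into 5 bins, from those with the fewest neighbours to those with the most, the NT siRNA alone share climbed through 0.793%, 1.23%, 1.87% and 2.81% to 3.77%. Over the same bins the null alone share went from 3.84% through 1.99%, 1.78% and 0.817% to 0.841%. The outer bins of each set had Wilson intervals that did not meet (NT siRNA alone 0.565 to 1.11 and 3.24 to 4.40, null alone 3.30 to 4.47 and 0.605 to 1.17), and the order of the outer bins held under every alternative tried. GC content of the TSS did not separate the sets, with a median of 53.9% in both, and both were scarce at either end of its range. In the GC-richest of 10 bins 0.769% of genes were NT siRNA alone and 0.913% null alone, and in the GC-poorest 0.384% and 1.30%. Of the genes with a high-CpG promoter, 0.374% were NT siRNA alone and 0.562% null alone, against 3.77% and 2.49% of those with a low-CpG promoter.

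**Figure D1:**
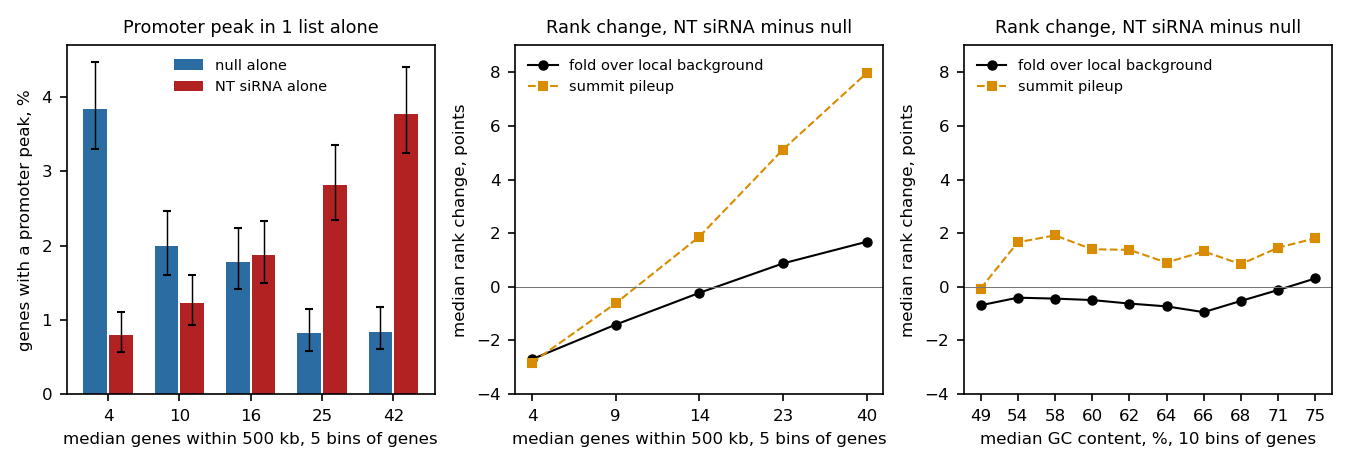
The left panel plots the percentage of protein-coding genes with a promoter peak in 1 list alone in 5 bins of gene density (median genes within 500 kb on the x axis), with 95% Wilson intervals for counting error, and the other panels plot the median rank change in percentile points, NT siRNA minus null, by 5 bins of gene density and 10 bins of GC content, ranked by fold over local background or by summit pileup. Null alone shares fall from 3.84% to 0.841% and NT siRNA alone shares climb from 0.793% to 3.77% with density. The median rank change at promoters climbs with density under both rankings but moves little with GC content.

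Most of the promoters called in the NT siRNA list alone were also called in the other transfected list. Of the 436, 385 (88.3%) had a promoter peak after H2A.Z siRNA and 147 (33.7%) in WT, with 251 called after H2A.Z siRNA but not in WT and 13 the other way around. For the 386 null alone genes the order was opposite: 278 (72.0%) had a peak in WT, 114 (29.5%) after H2A.Z siRNA, 197 in WT but not after H2A.Z siRNA and 33 the other way around. The H2A.Z siRNA list was the deepest of the 4, with a background of 17.8 fragments, and the WT list had 8.85. The part of depth in these shares was not tested.

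A gene could fall into 1 set because a peak ended just outside the window in the other list, or because its peak lay in a gap of the running number. Leaving out such genes, a choice made after seeing the values, kept 407 of 436 NT siRNA alone genes and 357 of 386 null alone genes, and the shares called after H2A.Z siRNA and in WT were then 88.2% and 32.9% for the former, and 28.6% and 71.4% for the latter. Of the 8 highest-ranked NT siRNA alone genes, Vstm2l, Serinc2, Apoa1 and Padi3 were of this kind. Of the 8 highest-ranked null alone genes, 1700017N19Rik and Cpeb4 had an overlapping peak outside the window, 3110070M22Rik, Gm10717, Gm10722, Gm10800 and Gm21738 lay in number gaps, and AW822073 alone was neither.

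Among the NT siRNA alone genes that remained, Cd300lg led. Cd300lg, a mucin-like receptor of the CD300 family, had a peak of 89 fragments (95% Poisson interval 71.5 to 110) at percentile 96.6, with its summit at −1140 bp from the TSS, in a gene at chr11:102041509-102055620. It was called after H2A.Z siRNA at percentile 81.1 and not in WT. Cyp17a1, an enzyme of steroid hormone synthesis, had 95 fragments (76.9 to 116) at percentile 83.5, with its summit in an intron 386 bp beyond the nearest annotated TSS, and stood at 80.8 after H2A.Z siRNA and in neither untransfected list. Both genes are known for tissues other than fibroblasts.

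Pipox, a peroxisomal oxidase, showed the same split, with percentile 73.7 after NT siRNA, 79.0 after H2A.Z siRNA and no call in either untransfected list. Hbq1a, a globin gene, stood at percentile 78.9 after NT siRNA, at 61.0 after H2A.Z siRNA and at 38.9 in WT. Chrna9, a nicotinic acetylcholine receptor subunit, reached 76.2, and 91.7 after H2A.Z siRNA against 54.2 in WT. These genes thus differed in whether WT cells also had a call, but where WT had a call it ranked lower than in either transfected list. Car5a, a mitochondrial carbonic anhydrase, had 99 fragments at percentile 73.9 and stood at 73.7 after H2A.Z siRNA and 3.02 in WT. Gh, which encodes growth hormone, was at 72.5 in both transfected lists and 21.4 in WT, and Ucp2, a mitochondrial carrier, at 70.1, 66.9 and 12.7.

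The null alone genes were led by AW822073, Klra2 and Slitrk5. Slitrk5, a transmembrane protein of neurons, had 47 fragments (34.5 to 62.5) at percentile 69.6 in the null list, stood at 66.8 in WT and was called in neither transfected list. Pde1c, a calmodulin-dependent phosphodiesterase, had 41 fragments at percentile 64.4, with 75.8 in WT and no call after H2A.Z siRNA. Mpped2, a metallophosphoesterase, stood at 64.7 in the null list, 75.5 in WT and 14.0 after H2A.Z siRNA. These 3 genes were therefore high in both untransfected lists and low or absent in both transfected ones. AW822073 had 125 fragments at percentile 83.8, with 93.6 in WT and no call after H2A.Z siRNA. Klra2, of the killer cell lectin-like receptors, stood at 76.7, but at 53.4 after H2A.Z siRNA and 63.3 in WT, and Olfr90, an olfactory receptor gene, at 68.7 with 71.5 after H2A.Z siRNA. Psg16, a pregnancy-specific glycoprotein, and Mctp2, a calcium-binding membrane protein, stood at 65.5 and 64.4 and were called in all lists but that of NT siRNA.

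Within the 13781 genes called in both lists, the order of promoters was largely kept. Spearman's rho between the percentiles was 0.878 across genes, which are not independent replicates, and the rank change, NT siRNA minus null, had an SD of 11.4 points. A gene was counted as higher or lower at 20 points or more. By that rule 721 genes (5.23%) ranked higher and 355 (2.58%) lower after NT siRNA. After subtraction of the median of genes of like GC content and gene density, in 50 cells, 691 (5.01%) ranked higher and 326 (2.37%) lower. The genes just inside and just outside the rule, in both directions, differed from 20 points by less than the last digit given here, so the rule cut through a continuous distribution. With the same number of peaks in each list the raw split was 574 against 537, and with −log10 q at least 5 it was 999 against 282.

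At promoters GC content and gene density did not weigh alike. The raw rank change had a rho of 0.0198 with GC content and of 0.241 with gene density, the latter ranging from 0.0239 to 0.341 between autosomes. By bins of density the median change went from −2.70 through −1.41, −0.225 and 0.873 to 1.68 points. After the adjustment the rho with density was 0.0571. Low-CpG promoters moved most in both directions, with 12.1% higher and 5.01% lower, against 4.37% and 2.63% of intermediate-CpG and 2.50% and 1.22% of high-CpG promoters. The fold behind these ranks is relative to the local background, and ranking by the fragments at the summit instead, a choice made after seeing the data, gave a rho with density of 0.496 and an adjusted split of 573 against 504. Of the genes called by the summit fragments, 354 of those higher and 215 of those lower were also called by fold.

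**Figure D2:**
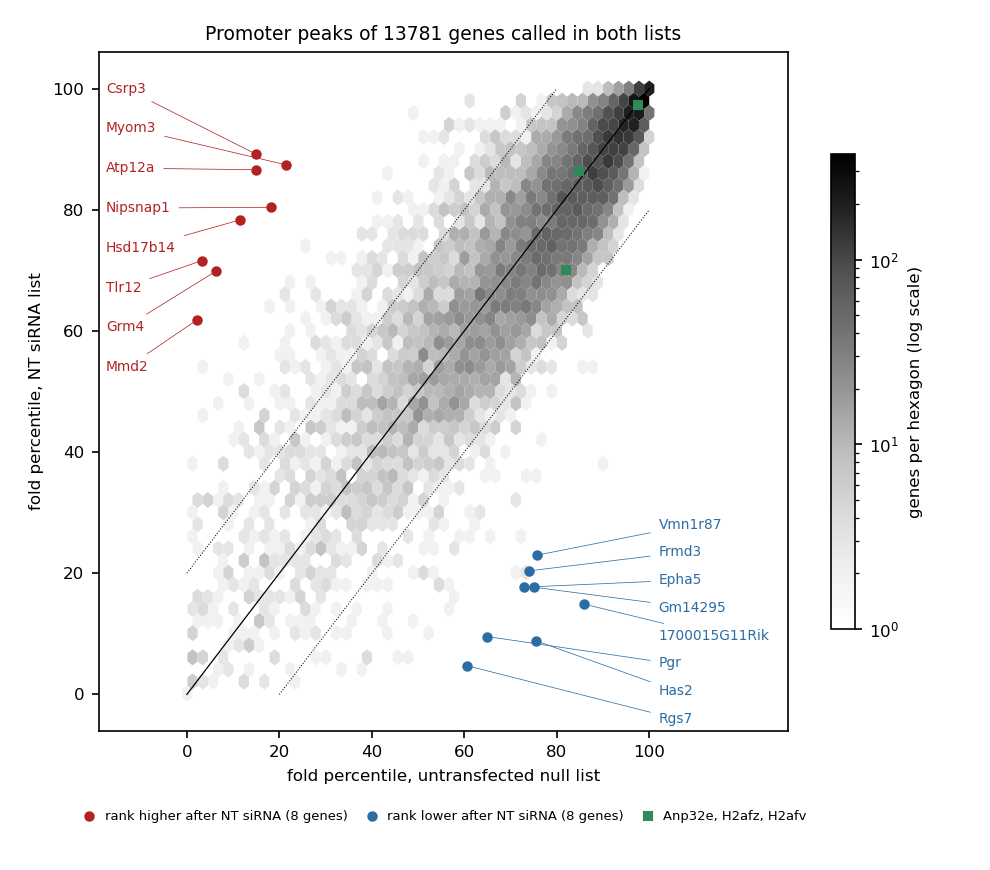
The plot sets the fold percentile of each gene's promoter peak in the untransfected null list (x axis) against that in the NT siRNA list (y axis) for 13781 genes, as hexagons shaded by the number of genes on a log scale, with the line of equality and dotted lines at 20 points on either side. The 8 named genes of largest rise (red) sit at the upper left, the 8 of largest fall (blue) at the lower right, and Anp32e, H2afz and H2afv (green) near the line, H2afz lowest at 70.1 after NT siRNA.

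The genes of largest rise started low in the null list, which their choice by size of rise on a percentile scale requires. Csrp3, the muscle LIM protein, went from 18 fragments at percentile 14.9 to 73 fragments at percentile 89.2, an adjusted rise of 75.2 points, and its summit fragments over background were 5.35 times as many (95% counting interval 3.16 to 9.52), against a median of 2.15 times over the 13781 genes, of which 11565 had an interval above 1 and 200 below. It stood at 87.4 after H2A.Z siRNA and was not called in WT. Myom3, which encodes a protein of the muscle M-band, went from 20 fragments at 21.5 to 78 at 87.4, and stood at 85.8 after H2A.Z siRNA against 37.4 in WT. For both, the null and NT siRNA peaks overlapped, Csrp3 at −529 bp from the nearest TSS in an intron and Myom3 in an intron 1044 bp beyond a TSS.

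Tlr12, a Toll-like receptor, went from 15 fragments at percentile 3.23 to 51 at 71.6. It stood at 45.5 after H2A.Z siRNA and at 6.01 in WT. Nipsnap1, a mitochondrial protein, went from 19 fragments at 18.3 to 70 at 80.4, and Mmd2, of the progestin and adipoQ receptor family, from 14 at 2.17 to 42 at 61.8. Each of these rose at the same site in both lists. In Atp12a, a proton pump, Hsd17b14, a steroid dehydrogenase, and Grm4, a glutamate receptor, the strongest promoter peak was at another site in each list. Atp12a went from percentile 14.9 to 86.6, Hsd17b14 from 11.4 to 78.3 and Grm4 from 6.39 to 69.9. The 6 genes with a WT call ranked higher after H2A.Z siRNA than in WT, and Csrp3 and Hsd17b14 were called after H2A.Z siRNA and not in WT.

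The 8 genes of largest fall went from percentiles of 60.5 to 85.9 in the null list to percentiles of 4.76 to 23.0 after NT siRNA. The promoter peak of 1700015G11Rik went from 66 fragments (51.0 to 84.0) at percentile 85.9 to 17 (9.90 to 27.2) at percentile 14.9, an adjusted fall to −68.1 points, and the ratio over background was 0.340 (0.187 to 0.586). Epha5, an ephrin receptor, went from 49 fragments at 73.0 to 18 at 17.7, and Pgr, the progesterone receptor, from 49 at 65.0 to 15 at 9.55. In WT these genes stood at 67.0, 74.6 and 74.8, and after H2A.Z siRNA at 41.3, 24.2 and 9.98.

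Rgs7, a regulator of G protein signalling, went from 38 fragments at percentile 60.5 to 13 at 4.76, and Frmd3, a FERM domain protein, from 50 at 74.0 to 19 at 20.4. Gm14295 went from percentile 75.0 to 17.7 and Vmn1r87, a pheromone receptor gene, from 75.8 to 23.0. These fell at the same site and against a local background at the genome-wide level in both lists. Vmn1r87 was the only one of the 8 to rank lower in WT, at 29.4, than after H2A.Z siRNA, at 37.8. Frmd3 had no call after H2A.Z siRNA.

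Has2, the main hyaluronan synthase of fibroblasts, differed from the others. It went from 287 fragments (255 to 322) at percentile 75.5 to 140 (118 to 165) at 8.86, but the 2 peaks were at different sites. The null peak, chr15:56692238-56693590, had its summit in an intron 2114 bp into the gene and reached into the promoter window only at its edge, and the NT siRNA peak had its summit at −249 bp from the TSS. The local background was 32.4 fragments in the null list and 42.2 in the NT siRNA list, and Has2 stood at 79.8 in WT and 73.1 after H2A.Z siRNA. With promoters of 500 bp on either side the adjusted change of Has2 was −1.10 points, and by summit fragments it was −14.7. Of the named genes, Atp12a also lost its size in 1 setting, with 12.6 points when TSSs of protein-coding transcripts alone were used.

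The local background, against which fold is measured, differed between the lists. At the strongest promoter peaks its median was 2.59 times the genome-wide background in the null list and 4.79 times in the NT siRNA list. Across genes its log2 change had a rho of 0.0732 with the change in fold rank and of 0.734 with the change in summit fragment rank. The gene lists below are therefore given by both measures, as the median change after adjustment. The adjusted medians of all 13781 genes are 0 by construction, and 49.9% of genes lay below 0 and 49.8% above by fold. Counts of members past the 20-point rule below are of adjusted changes by fold unless said otherwise, and over all genes they were 5.01% higher and 2.37% lower. Of the 25 lists, 12 had medians of opposite sign by the 2 measures.

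Immediate early genes, the transcription factors induced within minutes by serum or stress, had the lowest median by fold, −7.83 points, with 22 of 30 members below 0, and 1 member ranked higher and 2 lower by the 20-point rule, against 5.01% and 2.37% of all genes. Before adjustment 1 ranked higher and 5 lower, against 5.23% and 2.58%. By summit fragments the same genes had a median of 3.73 with 23 above 0, and their local background rose from a median of 4.21 to 13.8 times the genome-wide level. Egr1, a zinc finger factor, went from percentile 59.3 to 27.1, whereas its summit went from 206 to 816 fragments and its local background from 32.3 to 175. Fos, a subunit of AP-1, went from 69.1 to 48.6 with 145 and 413 fragments, and Jun, its partner, from 64.7 to 43.8 with 414 and 591.

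Egr1 passed the 20-point rule after adjustment, as did Atf3 and Egr3, and Fos and Jun, both at −19.6 points, did not. Atf3, a stress-induced factor, went from 92.0 to 51.5, with its strongest peak at another site, and was at 94.9 in WT and 88.1 after H2A.Z siRNA. Egr3, of the Egr1 family, went from 0.723 to 59.8 and from 36 to 289 fragments, also at another site, and stood at 64.6 after H2A.Z siRNA. Ier2 and Dusp1, an early response gene and a MAP kinase phosphatase, gained 7.60 times (6.16 to 9.44) and 5.42 times (4.00 to 7.47) the fragments over background with adjusted fold ranks of 1.48 and 10.9 points. For Egr1, Fos and Jun, which ranked lower by fold, the ratio was 5.22, 3.75 and 1.88, against the median of 2.15 for all genes, so that of Jun was below it.

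The contractile list, targets of SRF and of YAP/TEAD, had a median of −6.99 points by fold, with 23 of 29 members below 0, and of 3.96 by summit fragments. Acta2, Zyx and Actg1 were the 3 members past the rule downwards, against 2.37% of all genes. Acta2, smooth muscle actin, went from percentile 81.0 to 58.3 with 280 and 351 fragments. Zyx, zyxin of focal adhesions, went from 87.3 to 65.8 with 687 and 696, and Actg1, cytoplasmic actin, from 61.3 to 43.1 with 144 and 529. Tead2, a TEAD factor, was the 1 member past the rule upwards, against 5.01% of all genes, from 26.5 to 59.9 with 30 and 75 fragments. Cnn2, a calponin, was called in the NT siRNA list alone, at percentile 2.16 with 267 fragments over a local background of 105.

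Lists of stress responses lay close to all genes by 1 measure or both. Heat shock and proteostasis genes had medians of −4.86 by fold and 0.300 by summit fragments, with 18 of 22 members below 0 by fold, against 49.9% of all genes, and none past the rule, against 5.01% higher and 2.37% lower. Hspa8, the constitutive HSP70, went from 82.0 to 66.5, and Hsp90ab1, 1 of the 4 above 0, from 37.7 to 48.3. Targets of ATF4 and ER stress had medians of −2.78 and 0.507, and Atf4 itself, the 1 member past the rule, fell from 71.5 to 50.5 with 206 and 595 fragments. NRF2 and oxidative stress genes had −2.13 and 0.543, and p53 targets −1.75 and 1.26, with no member past 20 points by fold in either, though 1 NRF2 gene was before adjustment.

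Interferon response genes and nucleic acid sensors, which a transfected RNA could engage, had medians of −1.27 by fold and −3.95 by summit fragments over 27 members, and 1 member ranked higher by the rule and 0 lower, against 5.01% and 2.37% of all genes. That member was Zbp1, a sensor of Z-form nucleic acid, which went from percentile 10.1 to 50.2 with 45 and 93 fragments. Dhx58, a relative of RIG-I, which passed the rule before adjustment only, went from 67.4 to 87.5, whereas Ddx58, which encodes RIG-I, went from 80.9 to 61.9 and Ifit2, an interferon-induced effector, from 70.4 to 52.1. In 1 list alone were Ifnb1, which encodes interferon beta, and Oasl1 after NT siRNA, with 18 and 28 fragments, and Oas3 in the null list with 45. The members thus went both ways. The machinery of RNA interference, such as Ago4 and Dgcr8, had medians of −0.685 and 0.931, with 0 of 19 past the rule by fold.

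NF-kB and inflammatory cytokine genes lay above 0 by both measures, 1.74 by fold with 15 of 26 above 0 and 5.05 by summit fragments with 21 of 26. Icam1, a leukocyte adhesion molecule, went from 2.61 to 24.7 at another site, and Traf1, an adaptor of TNF receptors, from 42.6 to 65.1. Icam1 and Traf1 were the 2 of 26 members past the rule, against 5.01% of all genes higher, and before adjustment there were 3. Ptgs2, the inducible cyclooxygenase, went from 91.5 to 74.0. Tnf was called in the NT siRNA list alone with 16 fragments and Cxcl2 in the null list alone, also with 16.

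Genes of lipid handling and uptake, which the lipid reagent could touch, were near the level of all genes by at least 1 measure. Cholesterol and fatty acid synthesis had medians of 0.684 by fold and 1.65 by summit fragments. Srebf1, its master regulator, went from 53.7 to 81.0 with 57 and 267 fragments. Lysosome and autophagy genes had 2.18 and 1.29. Endocytosis genes had 1.70 and 4.01, and Dnm1, a dynamin, went from 45.7 to 82.9. Adipogenic and lipid droplet genes had 4.11 and −0.239, and Fabp4, a fatty acid binding protein, went from 22.7 to 59.8 at another site. In these 4 lists 1, 3, 2 and 2 members ranked higher by the rule and 0 lower, against 5.01% and 2.37% of all genes. Before adjustment 1 endocytosis gene, Cav1 of caveolae, was also lower, from 83.8 to 61.2.

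Fibroblast genes also differed between the 2 measures. Matrix and collagen genes had a median of 0.434 by fold and of 10.1 by summit fragments, with 26 of 29 above 0 by the latter. Eln, elastin, went from percentile 40.1 to 81.4 with 33 and 87 fragments, and Mmp13, a collagenase, from 41.0 to 70.3. Col1a2, a chain of type I collagen, went from 71.4 to 53.5 while its fragments went from 51 to 202, at another site, and Sparc, a matrix glycoprotein, from 73.6 to 48.5 with 132 and 183. Fibroblast markers had −3.87 and 7.27, with S100a4 at 62.2 and 41.5, the 1 of 16 members past the rule, against 2.37% of all genes lower. The TGF-beta and BMP pathway had −4.32 and 1.05, with Grem1, a BMP antagonist, at 82.9 and 63.5 and Ltbp2, a latent TGF-beta binding protein, at 32.1 and 64.4.

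Genes of growth had medians near 0 by both measures. Medians were −0.518 and −1.13 for DNA replication and cell cycle, with Pcna at 96.6 and 81.0, and 0.357 and 1.74 for cytosolic ribosomal proteins, with Rps9 at 66.3 and 83.5. Among these, 0 of 39 and 0 of 45 members passed the rule by fold, against 5.01% of all genes higher and 2.37% lower. The genes of H2A.Z exchange and the ANP32 family had −0.470 and 0.983, also with 0 of 20 past it, H2afz being the lowest of them.

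**Figure D3:**
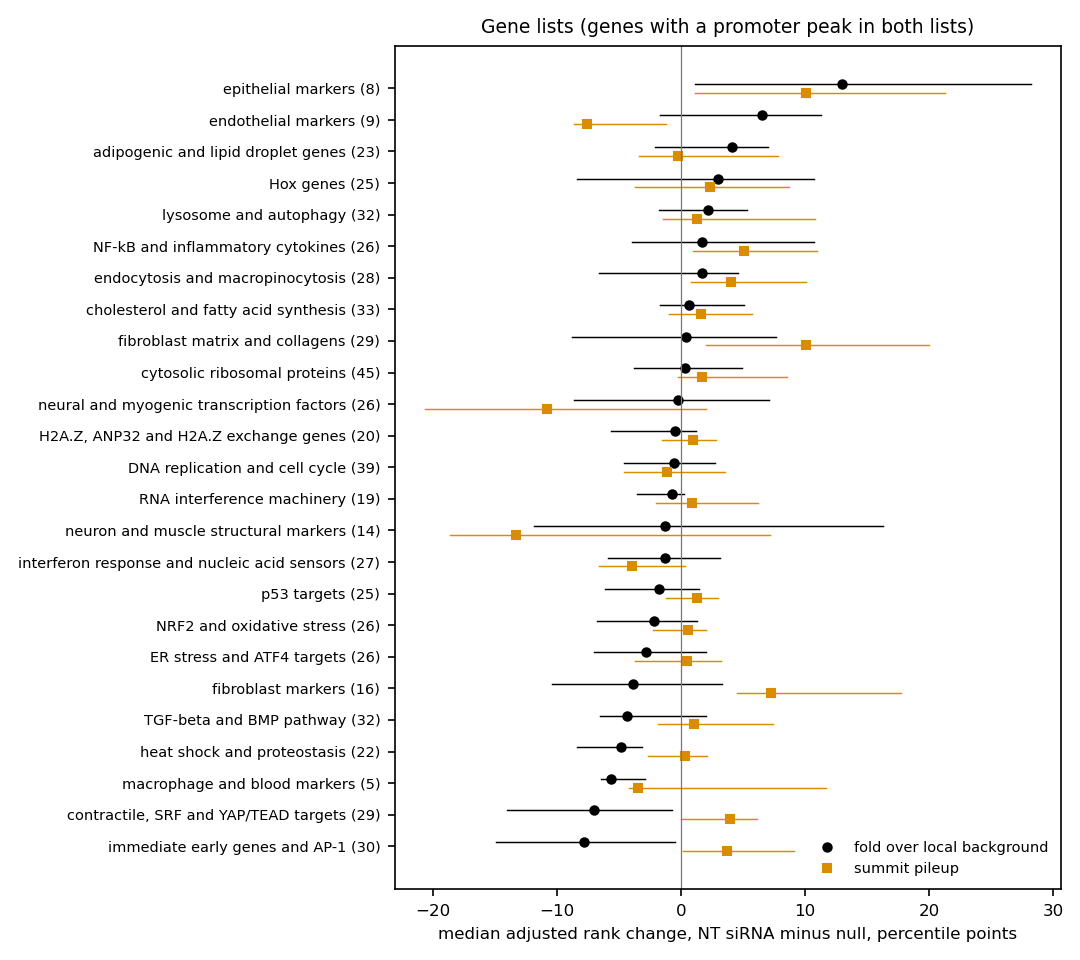
The plot gives, for each of 25 gene lists (number of members with a promoter peak in both lists in brackets), the median adjusted rank change in percentile points, NT siRNA minus null, ranked by fold over local background (black circles) or by summit pileup (orange squares), with lines from the lower to the upper quartile of the members. Epithelial markers lie highest by fold at 13.0 points, and the immediate early and contractile lists, at −7.83 and −6.99 by fold, lie above 0 by pileup.

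Epithelial markers had the highest median of the 25 lists by fold. It was 13.0 by fold and 10.1 by summit fragments, the latter also the value of the matrix and collagen list, over 8 members with a peak in both lists. Of the 14 listed, 3, Krt18, Cldn4 and Ovol1, had a promoter peak in the NT siRNA list alone, against 2.10% of all genes. Krt18, Cldn4 and Ovol1 had 44, 26 and 51 genes within 500 kb. The NT siRNA alone share was 2.81% in bin 4 and 3.77% in bin 5 of gene density, and these calls were not adjusted for density. Krt8, which pairs with Krt18 in simple epithelia, went from 36 fragments at percentile 23.9 to 137 at 63.9, and its ratio over background was 5.02 (3.45 to 7.46), against medians of 2.07 for the list and 2.15 for all genes. Of the 8 members, 4 had a ratio above that of all genes. Cdh1, E-cadherin, went from 26 fragments at 38.6 to 56 at 68.3, Cldn7, a tight junction claudin, from 16 at 8.01 to 36 at 37.5, and Epcam, an epithelial adhesion molecule, from 23 at 30.7 to 34 at 50.9. These 4 passed the rule, against 5.01% of all genes, and Krt19, Grhl2, Esrp1 and Cldn3 did not. The members had a median percentile of 28.2 in the null list, against 80.6 for all genes, and so had more room to rise. Esrp1 and Cldn3 lay above 0 after adjustment. Krt19 and Grhl2 lay below 0, at −0.855 and −0.354 points by fold.

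The same 7 markers ranked higher after H2A.Z siRNA than in WT, or were called there and not in WT, though 4 of them stayed below percentile 50. After H2A.Z siRNA and in WT, Krt8 stood at 68.8 and 21.6, Cdh1 at 58.4 and 36.8, Cldn7 at 45.2 and 6.50, and Epcam at 58.2 and 54.2. Krt18, Cldn4 and Ovol1 were called after H2A.Z siRNA, at 25.5, 23.7 and 22.2, and not in WT. The other 4 called members were likewise higher, Krt19 at 65.9 and 63.0, Esrp1 at 62.4 and 43.5 and Cldn3 at 44.4 and 22.4, and Grhl2 at 11 with no WT call. After adjustment 1 of the 7 members called in all 4 lists was below 0. Summed over the list, fold was 31.9 in the null, 67.0 in the NT siRNA, 24.4 in the WT and 57.8 in the H2A.Z siRNA list, and the sums over all genes were 135215, 174608, 114821 and 159627 in the same order. The median stayed between 9.06 and 18.8 under 11 alternatives. Grhl2 and Esrp1, factors that define epithelial identity, were called in both lists, with 16 and 13 fragments and with 40 and 38. The part of epithelial cells in these values was not tested.

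The other marker lists did not move together. Endothelial markers had medians of 6.50 by fold and −7.54 by summit fragments, with Pecam1 called in the NT siRNA list alone and Sox17 in the null list alone. The 5 macrophage and blood markers called in both had −5.66 and −3.47, with Lyz2 in the null list alone. Neuron and muscle structural markers had −1.26 and −13.3. Nefl, a neurofilament, went from 60.5 to 30.4 with 38 and 23 fragments, and Stmn2, a neuronal stathmin, from 67.8 to 44.3, whereas Ckm, muscle creatine kinase, went from 40.3 to 78.7 with 33 and 114, Tnnt3, a troponin of fast muscle, from 30.0 to 63.1, and Des, desmin, from 15.9 to 43.8. These 5 of 14 were the members past the rule, 2 lower and 3 higher, against 2.37% and 5.01% of all genes.

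Transcription factors of neural and myogenic fate, which are usually silent in fibroblasts and kept in Polycomb-marked CpG-rich promoters, had medians of −0.250 by fold and −10.8 by summit fragments. Isl1, of motor neurons, went from 54 fragments at 73.3 to 21 at 25.6, with a ratio over background of 0.513 (0.294 to 0.863), and stood at 68.0 in WT and 34.6 after H2A.Z siRNA. Lhx3, a LIM homeodomain factor, went the other way, from 19 fragments at 7.14 to 53 at 60.9, and stood at 5.98 in WT and 73.2 after H2A.Z siRNA. Of the 36 on these chromosomes, 4 were called in the null list alone and 0 in the NT siRNA list alone, against 1.86% and 2.10% of all genes. They are Otx2, at percentile 36.1 with 25 fragments, and the myogenic factors Myod1, Myf5 and Myf6, with 16, 15 and 38 fragments. Of these, Myf6 had an overlapping NT siRNA peak outside the window. Otx2, Myf5 and Myf6 had 4, 5 and 5 genes within 500 kb, and Myod1 had 23. The null alone share was 3.84% in the sparsest bin of gene density, and these calls were not adjusted for density.

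Hox genes, which set position along the body axis and keep their pattern in cultured fibroblasts, had medians of 3.0 and 2.32. Of 39 genes, 5 were called in the NT siRNA list alone and 0 in the null list alone, against 2.10% and 1.86% of all genes. These were Hoxb3, Hoxb13, Hoxc9, Hoxc10 and Hoxc12, at percentiles of 25.6, 25.6, 10.4, 21.5 and 6.53, with 19 to 27 fragments each, and all 5 were called after H2A.Z siRNA. Hoxb13 and Hoxc10 were also called in WT. The 5 had 23 to 28 genes within 500 kb, and Hoxc9, Hoxc10 and Hoxc12 lie in the same cluster. In bin 4 of gene density, with a median of 25 genes, the NT siRNA alone share was 2.81%. These calls were not adjusted for density. Hoxc5 went from 28 fragments at 9.70 to 71 at 55.6, Hoxb9 from 16 at 8.01 to 33 at 29.3 and Hoxa13 from 48 at 23.2 to 169 at 41.3, while Hoxd3 and Hoxd4, which share a peak, went from 82.6 to 69.4. Hoxc5 and Hoxb9, 2 of the 25 called in both lists, passed the rule upwards, against 5.01% of all genes. The sign of the fold median changed under 3 alternatives.

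**Figure D4:**
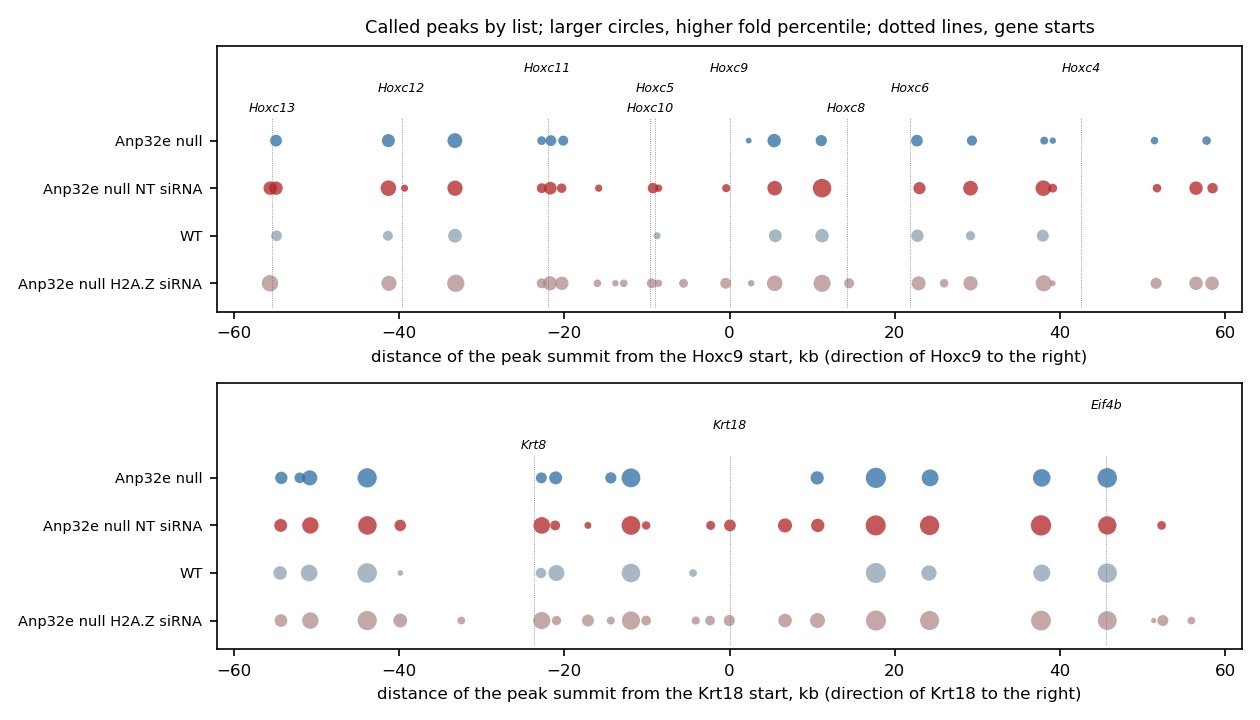
The map shows called peaks within 60 kb of the Hoxc9 start (top) and of the Krt18 start (bottom) in the 4 lists, by distance of the summit in kb in the direction of the gene, with larger circles for a higher fold percentile and dotted lines at gene starts. Around Hoxc9 the null list has 15 peaks and the NT siRNA list 21, with added peaks at the starts of Hoxc12, Hoxc10 and Hoxc9, and around Krt18 the lists have 13 and 18, with an added peak at the Krt18 start, and the H2A.Z siRNA list has 25 and 23.

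Counted over whole gene loci, the NT siRNA list held more sites of its own. A locus was a gene with 10 kb on either side, and it was counted when the sites called in 1 list alone outnumbered those in the other alone by 3 or more. By that rule 1778 loci (8.55%) had an excess of NT siRNA sites and 560 (2.69%) an excess of null sites. The loci with a null excess were in sparse regions, with a median of 5 genes within 500 kb and a median span of 173 kb, against 17 genes and 56.4 kb for those with an NT siRNA excess. In the sparsest bin 6.20% of loci had an NT siRNA excess and 8.67% a null excess, and in the densest bin 8.48% and 0.409%. With the same number of peaks in each list the counts were 1094 and 783, and with −log10 q at least 5 they were 1784 and 287.

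The windows at intronic sites of 5 of the named loci are shown next, 101 bp on the strand of the gene, with capitals for the AP-1 motif TGANTCA or the TEAD motif GGAATG on either strand. Each is the highest-ranked site of its locus that was called in 1 list alone and away from any TSS, and the other named loci are not shown. The NT siRNA alone sites are Lpp chr16:24538429-24538529 on the plus strand and Rbfox2 chr15:77182174-77182274 on the minus strand, and the null alone sites Etl4 chr2:20526045-20526145 on the plus strand, Sox5 chr6:144603025-144603125 on the minus strand and Gpc6 chr14:116939686-116939786 on the plus strand. Of these 5 windows, those of Lpp, Etl4 and Gpc6 held an AP-1 match and none held a TEAD match.
Lpp: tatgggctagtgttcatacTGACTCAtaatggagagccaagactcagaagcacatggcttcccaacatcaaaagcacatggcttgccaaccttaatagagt
Rbfox2: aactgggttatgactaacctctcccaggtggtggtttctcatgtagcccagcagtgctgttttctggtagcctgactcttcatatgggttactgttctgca
Etl4: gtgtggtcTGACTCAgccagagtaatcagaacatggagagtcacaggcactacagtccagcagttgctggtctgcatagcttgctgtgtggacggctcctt
Sox5: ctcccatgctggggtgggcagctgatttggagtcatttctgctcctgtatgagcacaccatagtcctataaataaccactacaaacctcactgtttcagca
Gpc6: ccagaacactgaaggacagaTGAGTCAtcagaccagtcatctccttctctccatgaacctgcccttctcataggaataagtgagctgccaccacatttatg

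Lpp, a focal adhesion LIM protein, had 24 sites in the NT siRNA list alone against 2 in the null list alone, Rbfox2, a splicing regulator, 20 against 0, and Erc2, a presynaptic scaffold, 19 against 0. In Rbfox2 19 of the 20 were called after H2A.Z siRNA and 3 in WT, in Lpp 18 of the 24 and 1, and in Erc2 16 of the 19 and 7. The H2A.Z siRNA list was the deepest of the lists, and the share over all such sites is not given here. The readthrough gene Gm20388, which spans 4435 kb and overlaps 73 other protein-coding genes, had 186 against 11.

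Etl4, the Sickle tail gene of disc development, at chr2:19909780-20810713, had 21 sites in the null list alone and 0 in the NT siRNA list alone, with 12 in both. Its 12 shared sites had a median rank change of −20.8 points, and of its 21 null alone sites 16 were called in WT and 4 after H2A.Z siRNA. Sox5, a chondrogenic and neural SOX factor, had 15 against 1, with 11 of the 15 called in WT and 11 after H2A.Z siRNA. Gpc6, a glypican, had 15 against 2 and a median change of −13.3 points at its shared sites. Macrod2 had 20 against 4 over 1998 kb, and Fgfr2, whose annotated span of 2961 kb overlaps 30 other genes, had 46 against 28. With loci of at most 1 Mb, chosen after seeing the data, the counts were 1773 and 525.

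Distal sites, those away from any TSS by more than 1 kb, made up most of the difference. Of 76817 distal sites, 17374 (22.6%) were in the NT siRNA list alone and 11667 (15.2%) in the null list alone, against 10.9% and 6.57% of 22756 promoter sites. Unlike at promoters, their median rank change climbed with GC content, from −2.45 to 6.15 points over 10 bins. Over 5 bins of gene density it went from −2.48 to 6.58 points. Across the GC bins null alone shares went from 22.4% to 8.02% and NT siRNA alone shares from 19.1% to 27.0%. In 201 bp around the summit, the AP-1 motif TGANTCA was present in 33.7% of all distal sites and in 38.6% of those in both lists. Only sites in both lists can change rank, and 42.3% of those that ranked lower after NT siRNA by 20 points or more held it. Of those that ranked higher 26.7% did, as did 31.2% of the null alone and 22.1% of the NT siRNA alone sites. For the TEAD motif GGAATG the shares in the same order were 22.5%, 24.4%, 30.9%, 17.1%, 22.2% and 17.5%. GC content also differed between these sets, with medians of 44.3% for sites ranked lower and 48.3% for those ranked higher. Among sites in the middle of 3 bins of GC content the AP-1 shares were 41.9% and 27.3%, against 39.0% of sites in both lists. A match of these letters is a description of the sequence and not a bound factor.

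The other transfected against untransfected contrast of the series, H2A.Z siRNA minus WT, shares no library with this one, and differs from it also in genotype and in the siRNA target. Over the 13560 genes with a promoter peak in all 4 lists, the rank changes of the contrasts had a rho of 0.599 across genes, and of 0.581 after both were adjusted for GC content and gene density, with 0.503 to 0.688 between autosomes. By 5 bins of the adjusted NT siRNA change, the median H2A.Z siRNA minus WT change was −7.06, −2.75, −0.189, 2.19 and 10.2 points. Of the 629 genes called higher after NT siRNA in this set, 91.4% were above 0 in the second contrast with a median of 23.7 points, and of the 293 called lower 16.0% were, with a median of −16.0 points, against 49.9% of all genes. By summit fragments the rho was 0.811 and after adjustment 0.778. Egr1, at 69.9 in WT and 46.3 after H2A.Z siRNA, and Krt8, at 21.6 and 68.8, moved in this contrast as they did after NT siRNA. With each summit thinned to the lower background the rho was 0.508 and, after adjustment, 0.484. What the shared reagent or library preparation contributed to this was not tested.

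**Figure D5:**
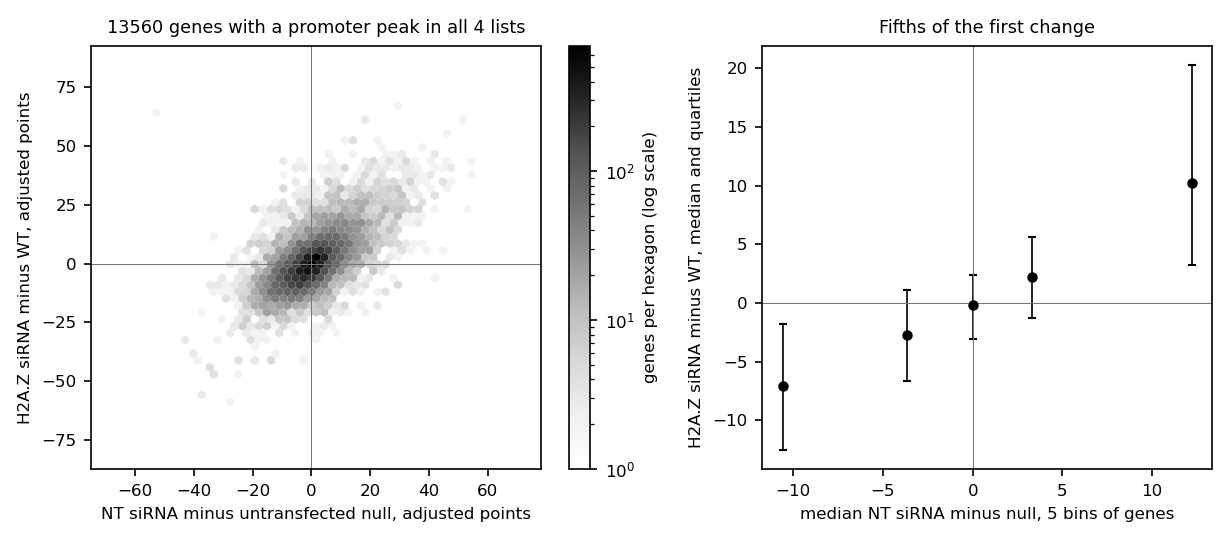
The left panel sets the adjusted promoter rank change, NT siRNA minus untransfected null (x axis), against H2A.Z siRNA minus WT (y axis), both in percentile points, for 13560 genes as hexagons shaded by gene number on a log scale, and the right panel gives the median and quartiles of the second change by 5 bins of the first. The medians climb from −7.06 in the lowest bin to 10.2 in the highest.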

How the data were processed

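The authors made ATAC-seq libraries from MEFs. Bowtie2 placed the reads on mm10, Picard took out duplicates, and MACS2, set for read pairs, called peaks once per group on the merged libraries. Per the labels, Anp32e null had 3 libraries, NT siRNA 1, WT 3 and H2A.Z siRNA 2. The fold deposited for each peak is a ratio, the summit pileup over the local background, each raised by a pseudocount of 1. The p-value and q-value were deposited as −log10 values. The deposited score, which was not used, restates the q-value, and a last deposited column gives the summit's offset in bp.

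Fold and −log10 p were solved for the whole fragments at the summit and the local background under a Poisson model. The solution was within 0.05 of a whole number for 100.00% of peaks in each list. This was tested on simulated data. PCR fragments without molecular identifiers are not independent molecules.

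Lists were kept to chromosomes 1 to 19, ranked by percentile of fold and joined where they overlapped by 1 bp. Genes were GENCODE M21 on GRCm38.p6, a promoter was any of 125891 TSSs with 1 kb on either side, and a gene took its highest-ranked promoter peak. Rank changes were adjusted by the median of 50 cells, 10 bins of GC content in 501 bp at the summit by 5 of gene density. CpG classes were high (observed over expected CpG of 0.75 or more and GC of 55% or more), low (under 0.48) and intermediate.

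The named genes were the 8 of largest adjusted rise and of largest fall whose counting interval of the background-scaled ratio excluded 1, the 8 highest with a promoter peak in 1 list alone, the 5 loci of largest net excess in each direction, and in the gene lists the extreme members and those called in 1 list alone. Members and the 25 gene lists were chosen with earlier results of these data known. Genes left after edges and gaps were removed, the 1 Mb limit on loci, ranking by summit fragments, the 2 mapped loci and the printed sequences were chosen after seeing the values. A few genes that met these rules are not reported here. With 1 list per group no test was made. Alternatives were a −log10 q of 5 or more, thinning to the lower background, equal numbers of peaks, leaving out gaps, 50% reciprocal overlap, 500 bp promoters, protein-coding TSSs, other ranking columns and bases, and other windows. Analyses used Python 3.11.15, NumPy 2.4.6, SciPy 1.17.1, pandas 2.3.3 and matplotlib 3.10.9.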

Additional observations from a re-analysis of the deposited data

How the results depend on the processing

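No paired analysis was possible because the libraries of each group had been pooled into 1 peak list, and for the same reason no replicate could be left out. Null peaks overlapping NT siRNA peaks went from 83.6% to 87.5% at a −log10 q of 5 or more, 84.6% after thinning, 81.2% with equal numbers of peaks and 75.9% with 50% reciprocal overlap. The converse went from 77.2% to 75.6%, 76.4%, 81.1% and 70.1%. With equal numbers the raw count of lower genes went from 355 to 537 and NT siRNA loci from 1778 to 1094, and the adjusted split was 620 against 425. Loci without their flanks gave 1019 in NT siRNA, and a −log10 q of 5 or more gave 287 null loci in place of 560.

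Ranking by −log10 p or by summit pileup moved more. The rho with density went from 0.241 to 0.489 and 0.496, lists with a median above 0 from 10 to 18 under both, and the second contrast's rho from 0.599 to 0.764 and 0.811, or adjusted from 0.581 to 0.715 and 0.778. Thinning gave 0.508 and 0.484. Adjusted lower genes went from 326 to 504 by pileup, and the adjusted split by −log10 p was 562 against 418. Of lists with a median of 3 points or more in size, those that changed sign under −log10 p and pileup were immediate early genes (3.78, 3.73), fibroblast markers (6.83, 7.27), contractile genes (2.88, 3.96) and the TGF-beta pathway (1.51, 1.05), and under pileup heat shock (0.300), adipogenic (−0.239) and endothelial genes (−7.54). Smaller medians, from −2.78 to −0.470 for ER stress, NRF2, p53, RNA interference and H2A.Z exchange genes, were 0.507 to 1.26 under pileup. The Hox median was −0.829 at a −log10 q of 5 or more, −2.73 with equal numbers and −4.08 with 500 bp promoters. The cause of these shifts was not tested. For the 16 genes of largest rise or fall, 153 of 156 values under alternatives kept the direction and 20 points. The other 3, for Atp12a and Has2, kept the direction alone. A gene without a promoter peak in both lists under an alternative gave no value there, and such losses are not among the 156. A single NT siRNA library and weak peaks of about 20 fragments limit what a missing call can show.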

Other observations

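Genes that do not code for protein showed more promoter calls in the NT siRNA list alone than in the null list alone for 4 of 6 classes. The counts were 180 against 128 of 5209 lincRNA genes, 126 against 75 of 2913 antisense genes, 115 against 101 of 8924 processed pseudogenes and 71 against 26 of 2054 miRNA genes, while the 1292 snRNA genes had 18 in each and the 1442 snoRNA genes 26 against 32. Protein-coding genes had 436 against 386, or 2.10% and 1.86%, and their order turned around with equal numbers of peaks, which was not run for these classes. Antisense genes often share a promoter window with the coding gene opposite, and their peaks cannot be told apart from it.

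Autosomes differed in the number of peaks called. Chromosome 11, with 13.4 protein-coding genes per Mb and a GC content of 43.8%, had 4286 null and 5695 NT siRNA peaks, a ratio of 1.33, and chromosome 19 followed with 1.18. Chromosomes 10 and 3 had ratios of 0.999 and 1.00. Over the 19 autosomes the ratio had a rho of 0.715 with genes per Mb and of 0.769 with GC content, given as a description since the points share the same 2 lists and both properties move together.

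At promoter sites the motif of SP1, GGGCGG on either strand in 201 bp, was present in 39.6% of shared sites and 34.7% of all promoter sites. It was present in 13.5% of null alone and 10.5% of NT siRNA alone sites. Median GC contents were 60.5% for shared, 50.3% for null alone and 51.5% for NT siRNA alone sites. In the same order the shares were 6.99%, 4.97% and 4.44% in the middle of 3 GC bins, and 48.7%, 25.2% and 17.0% in the highest. The AP-1 motif TGANTCA was present in 24.0% of promoter sites that ranked lower after NT siRNA and in 14.6% of those that ranked higher. It was present in 12.9% of all promoter sites and 12.1% of shared ones. Median GC contents were 52.5% for the lower, 54.5% for the higher and 58.5% for all sites. Over 3 bins of rising GC content the lower sites had 35.6%, 39.4% and 12.1%. The higher sites had 29.8%, 22.8% and 9.15%, and all promoter sites 35.2%, 28.2% and 6.49%. The higher sites were thus below all sites in the low and middle bins.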
